A study of Homo sapiens with 4 samples.

Results

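The bins that flank the largest unlisted stretch of each of chromosomes 1 to 22 were examined in SH-SY5Y cells, a human neuroblastoma line, after knockdown of TDP-43. The genome was divided into 50 kb bins, and the contacts counted inside each bin were taken. On each chromosome the largest gap between neighbouring listed bins was found, and the bins within 2 Mb of either edge were kept. This gave 1101 bins of the 46828 listed within-bin rows on chromosomes 1 to 22, in a table of 89239 bin pairs in all. Values came from 2 TDP-43 knockdown libraries, from cells that carry the shTDP-43 lentiviral shRNA, and from 2 control libraries of the same line. The labels name 1 knockdown construct and 1 control construct (shNC), describe stable lines (puromycin selection over 2 weeks at 2 µg/mL, then 1 µg/mL), and do not say whether the libraries of a group came from separate cultures. The p-values therefore measure only the spread between these libraries. TDP-43 protein and RNA were not measured in this assay.

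Micro-C, the assay used here, cuts chromatin with micrococcal nuclease and ligates neighbouring nucleosomes, so a within-bin count reports contacts over less than 50 kb. It is a raw sum, not divided by the mappable length or the DNA copy number of the bin. Human centromeres are built on long arrays of alpha satellite DNA. They are bordered by pericentromeric heterochromatin, other satellites and segmental duplications, where short reads often cannot be placed uniquely. TDP-43 is a nuclear protein that binds RNA and DNA rich in TG or UG repeats, and its loss from the nucleus is a hallmark of amyotrophic lateral sclerosis.

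The name "centromere gap" was given to 18 of the 22 chromosomes from general knowledge of centromere positions, since no centromere annotation was used here. It is least sure for chromosome 1. There a single listed bin, chr1:125050001-125100000, separates the largest gap from another gap more than 2 Mb wide. Which gap holds the centromere was not checked, so the largest one may lie beside it. These 18 gaps were 2.25 to 18.55 Mb wide with a median of 3.525 Mb, and 15 of them held no protein-coding gene. The remaining 3 held 11 genes, which included members of the SPATA31, POTE and olfactory receptor families. On the other 4 chromosomes the largest gap lay elsewhere. The gap of chromosome 6 was 5.0 Mb wide and held 170 protein-coding genes, among them GPX6, GPX5 and TRIM27, as it covers the region of the major histocompatibility complex. The gap of chromosome 15 was 4.05 Mb wide and held 27 genes, among them TJP1. The gap of chromosome 14 was 3.25 Mb wide with FSCB inside, and that of chromosome 13 was only 0.5 Mb wide. The results are therefore given for the 911 bins on the 18 chromosomes whose gap is taken to be at the centromere, with the 190 bins at the other 4 gaps apart.

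Listed bins were sparse beside the centromeres. Of 1476 possible bin positions in the 36 flanks, 61.7% were listed. 3 of these flanks were complete, and 2 held a single bin. The libraries listed 115168160 and 142424414 contacts in the knockdown, against 158400914 and 163147992 in the control. The median count per bin in the 1101 bins was 879 and 1086 in the knockdown libraries, against 1115 and 1092 in the control libraries.

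The promoters of 3 genes in these bins are shown because the bins of ZNF723 and TRIM64C had the largest decrease and the largest increase among the bins that hold a named gene, and because ZNF254 is a relative of ZNF723 on the same chromosome arm whose bin was higher. ZNF254 and the choice of these promoters were picked after the values were seen. The sequences are from RefSeq on GRCh38.p14 and cover 250 bases before to 50 bases after the gene start, 5′ to 3′ on the strand of the gene. Capitals mark CATTC and its reverse complement GAATG, the repeat unit of human satellite II and III.
ZNF723, chr19:22832041-22832340, plus strand: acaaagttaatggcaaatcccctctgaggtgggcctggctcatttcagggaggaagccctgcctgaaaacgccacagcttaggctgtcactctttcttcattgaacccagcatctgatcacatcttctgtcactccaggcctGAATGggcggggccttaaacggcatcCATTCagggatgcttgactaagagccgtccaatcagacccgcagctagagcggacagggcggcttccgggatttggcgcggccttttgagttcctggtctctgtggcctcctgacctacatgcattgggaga
ZNF254, chr19:24086937-24087236, plus strand: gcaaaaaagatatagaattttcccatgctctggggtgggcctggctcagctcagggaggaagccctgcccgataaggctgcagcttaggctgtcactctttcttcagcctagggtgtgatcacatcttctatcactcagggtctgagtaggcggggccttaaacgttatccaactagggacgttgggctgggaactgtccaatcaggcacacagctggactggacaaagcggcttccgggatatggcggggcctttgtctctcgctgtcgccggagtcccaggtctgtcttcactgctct
TRIM64C, chr11:49059063-49059362, minus strand: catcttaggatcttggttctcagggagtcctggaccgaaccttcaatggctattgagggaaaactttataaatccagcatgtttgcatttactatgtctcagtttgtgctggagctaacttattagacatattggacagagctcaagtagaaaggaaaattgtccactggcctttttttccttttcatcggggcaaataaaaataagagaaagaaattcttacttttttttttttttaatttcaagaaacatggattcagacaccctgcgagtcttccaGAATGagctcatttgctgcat
The ZNF723 and ZNF254 promoters were identical at 229 of 281 aligned bases (81.5%). Their GC content was 55.3% and 55.7%, and that of TRIM64C was 37.7%. The pentamer occurred 2 times in the ZNF723 promoter, 1 time in that of TRIM64C and not in that of ZNF254. None of these promoters held GTGTGT or ACACAC, the TG repeat searched on both strands. Over all 543 promoters in the bins at centromere gaps, 13.1% held the TG repeat and 35.0% the pentamer, against 13.5% and 35.7% of all 35116 promoters of the same length. In the promoters of bins lower in the knockdown these shares were 12.3% and 32.3% of 155, and in those of higher bins 11.1% and 44.4% of 27. A match describes these letters in this window and nothing more.

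Bins beside the centromeres were more often lower than higher in TDP-43 knockdown cells. Of the 911 bins, 163 (17.9%) were lower and 39 (4.28%) were higher in the knockdown at an adjusted p under 0.05 (edgeR quasi-likelihood test, TMM scaling, Benjamini-Hochberg adjustment over all pairs). Among all within-bin rows of chromosomes 1 to 22, 14.7% were lower and 7.29% were higher. The median log2 fold change, knockdown over control, was -0.05 for the 911 bins and 0.02 for all within-bin rows. These fold changes fell with the level of a bin, so the fit was repeated after removing that trend with a loess curve per library. That scaling matched the fold changes of the authors' deposited table within 0.00311 (log2). It left 100 of the 911 bins lower (10.98%) and 36 higher (3.95%), with background shares of 5.24% lower and 8.00% higher. In both scalings, 92 of the 911 bins were lower and 22 were higher. Among all within-bin rows such bins were not counted. They can be at most 5.24% lower and 7.29% higher, the smaller background share of each direction. The changes were mostly small, as the called bins had a median absolute log2 fold change of 0.34, with 40 past 0.5 and 1 past 1.

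At the 4 other gaps, lower and higher bins were closer in number. Of these 190 bins, 26 (13.7%) were lower and 20 (10.5%) were higher, and with the trend removed 2.63% were lower and 6.84% were higher. Their median log2 fold change was -0.01. On chromosome 15, 13 bins were higher and 3 lower, which became 4 higher and 3 lower with the trend removed. On chromosome 6, 6 were higher and 22 lower, which became 9 higher and 1 lower. Over all 22 chromosomes, 189 bins were lower (17.2%) and 59 higher (5.36%), and with the trend removed 105 lower (9.54%) and 49 higher (4.45%). These TMM counts rested on both knockdown libraries. Without knockdown library 1, 91 bins were lower (8.27%) and 10 higher, beside 7.31% lower and 1.45% higher among all within-bin rows, and without knockdown library 2, 111 were lower (10.1%) and 22 higher, beside 8.47% and 2.06%. The difference between the 2 kinds of gap was not tested.

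**Figure D1:**
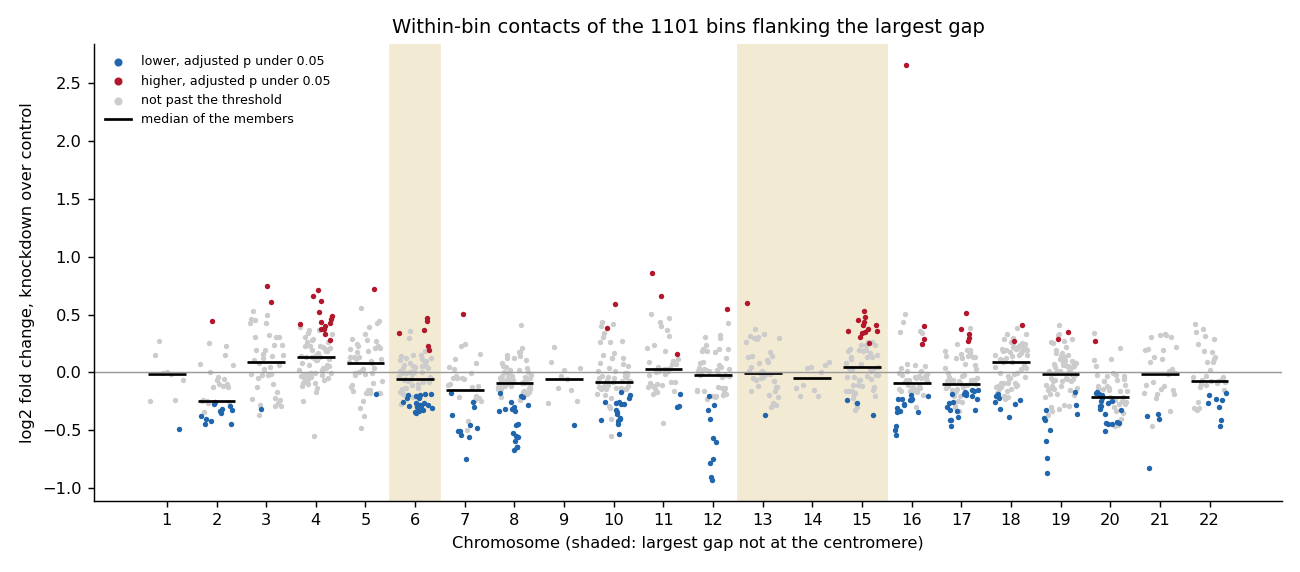
Each point is 1 bin, placed in the order of its position along its chromosome, with its log2 fold change of within-bin contacts (knockdown over control, TMM scaling) on the vertical axis. Bars are medians over the bins of a chromosome. Blue points are lower and red points higher at an adjusted p under 0.05. Blue points gather near the middle of chromosomes 8 and 12, where the gap lies, and chromosome 4 has 14 red points and no blue one.

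Over the 18 chromosomes together, the share of lower bins was highest next to the gap, a pattern that chromosomes 8 and 12 carried. Within 0.5 Mb of the centromere gap, 41 of 209 bins (19.6%) were lower and 7 (3.35%) higher, and with the trend removed 40 (19.1%) were lower and 5 (2.39%) higher. With the trend removed, the share of lower bins was 11.3% at 0.5 to 1 Mb, 10.0% at 1 to 1.5 Mb and 5.0% at 1.5 to 2 Mb. Over the 1019 bins from 2 to 4 Mb it was 5.50%, close to the background of 5.24%. The median log2 fold change in that scaling was -0.12, -0.04, -0.03 and -0.01 in the 4 classes out to 2 Mb, and 0.04 at 2 to 4 Mb. Under TMM scaling this decline was not seen beyond the first class, as the 3 outer classes had 17.6%, 17.3% and 17.3% lower bins and the bins at 2 to 4 Mb had 14.3%. Both knockdown libraries lay below both control libraries in 96 of the 209 nearest bins, against a background of 29.2% of all within-bin rows.

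**Figure D2:**
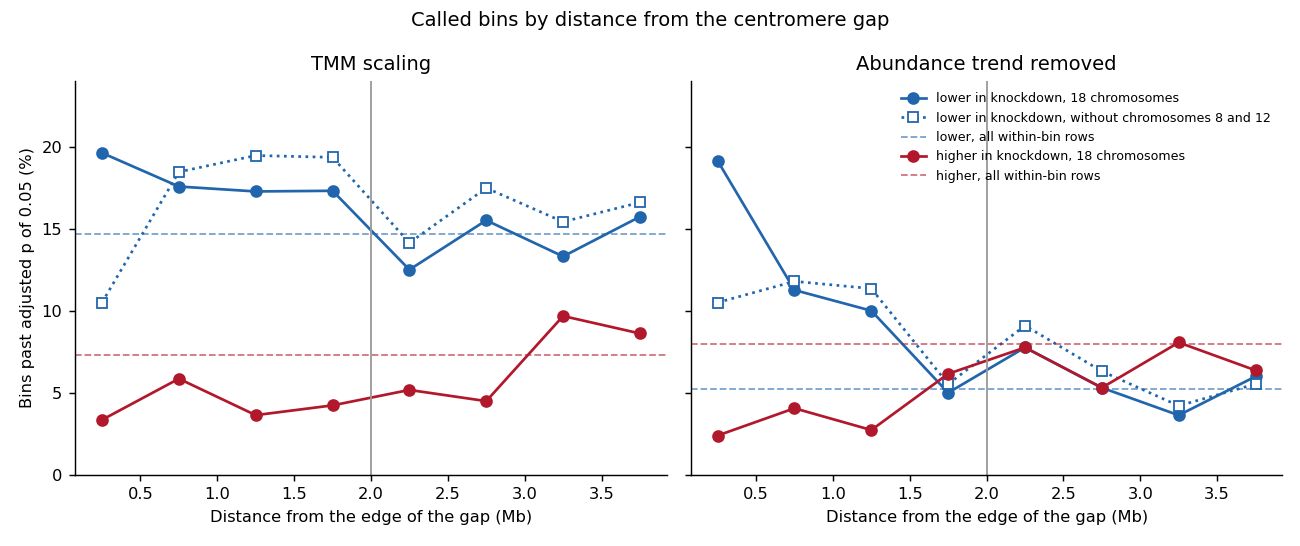
Percentage of bins called lower (blue) and higher (red) in the knockdown by distance from the edge of the centromere gap in 0.5 Mb classes, under TMM scaling (left) and with the abundance trend removed (right). Open squares leave out chromosomes 8 and 12, dashed lines are the shares among all within-bin rows, and the grey vertical line is the 2 Mb limit of the flanks. Nearest to the gap 19.6% and 19.1% of bins were lower on all 18 chromosomes, and 10.5% in both panels without chromosomes 8 and 12.

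Chromosomes 8 and 12 held 22 of the 41 lower bins nearest the gap, among only 28 of the 209 bins. Without these chromosomes, 19 of 181 bins (10.5%) were lower in each scaling. With the trend removed the shares of the 4 classes were then 10.5%, 11.8%, 11.35% and 5.53%, so the class nearest the gap no longer stood above the next 2. Under TMM they were 10.5%, 18.5%, 19.5% and 19.35%, so the class nearest the gap was the lowest. The median log2 fold changes of these classes still declined toward the gap with the trend removed, at -0.08, -0.04, -0.03 and -0.004. Under TMM the medians were -0.06, -0.04, -0.03 and -0.05. Both knockdown libraries lay below both control libraries in 74 of the 181 nearest bins. The 10.5% is below the TMM background of 14.7% and above the trend-removed background of 5.24%. The 41 lower bins lay on 11 of the 18 chromosomes. The number also depended on single libraries, with 22 lower bins (10.5%) without knockdown library 1 and 27 (12.9%) without knockdown library 2, where 7.31% and 8.47% of all within-bin rows were lower. The same 2 fits left 18 and 23 with the trend removed.

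The 2 sides of the gap were unequal in these counts. On the short-arm side 82 of 401 bins were lower and 7 higher (20.45% and 1.75%), and on the long-arm side 81 of 510 were lower and 32 higher (15.9% and 6.27%). With the trend removed, 64 were lower on the short-arm side (15.96%) and 36 on the long-arm side (7.06%). Each side draws on the same libraries, and the difference between sides was not tested. The single lower-coordinate bin of chromosome 1, counted here on the short-arm side, was not called, and its arm was not checked. At the 2 Mb limit itself, 6 of the 24 bins at 2.00 Mb were lower and none higher, and 2 of the 26 bins at 2.05 Mb, just outside, were lower and 1 higher. After removal of the trend none was lower and 2 were higher at 2.00 Mb, against 2 lower and 1 higher just outside.

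By chromosome, 14 of the 18 had more lower than higher bins, 2 had more higher bins and 2 had equal numbers. Lower bins outnumbered higher ones among all within-bin rows of chromosomes 1 to 22 as well, at 14.7% against 7.29%. The TMM count of chromosomes therefore does not by itself set these flanks apart. With the trend removed, 14 had more lower bins, 3 more higher bins and 1 equal numbers. The background then stood the other way round, at 5.24% lower and 8.00% higher. Under TMM, chromosome 8 had 20 lower bins of 77 (25.97%) and no higher one. Chromosome 20 had 19 lower (32.76%) and 1 higher of 58, and chromosome 7 had 11 lower (30.56%) and 1 higher of 36. Chromosome 16 had 16 lower (26.67%) and 4 higher of 60. Chromosome 4 ran the other way, with 14 higher bins of 74 (18.92%) and no lower one. With the trend removed it had 9 higher and 1 lower. Chromosome 17 turned with the scaling, since 20 bins were lower and 5 higher under TMM, and 5 were lower and 12 higher with the trend removed.

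As parts of all within-bin contacts, the flanks changed little. The 1101 bins held 1.928% and 1.930% in the knockdown libraries, against 1.936% and 1.942% in the control libraries. The 911 bins at centromere gaps held 1.558% in both knockdown libraries, against 1.574% and 1.575% in the control libraries. The bins within 0.5 Mb of the gap held 0.2328% and 0.2326% in the knockdown, against 0.2498% and 0.2526% in the control, a ratio of 0.926. Each of these differences had an exact permutation p of 0.333, the smallest that 2 against 2 libraries allow. Without chromosomes 8 and 12 the order turned, with 0.157% and 0.1562% in the knockdown, against 0.1516% and 0.1489% in the control, a ratio of 1.042. A rise in this share was not particular to these bins. The ratio was 1.026 for the bins at 2 to 4 Mb from centromere gaps and 1.019 for the bins at the other gaps.

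Chromosome 8 held the longest run of lower bins. All 9 adjoining bins of chr8:46000001-46450000, the first on the long-arm side, were lower in both scalings, with log2 fold changes between -0.65 and -0.34. The bin chr8:46200001-46250000 had 68.6 and 65.4 CPM (counts scaled to the size of each library) in the knockdown, against 103.0 and 106.4 CPM in the control. The log2 fold change of this bin was -0.64, with a standard error (given after ± below) of 0.06 and an adjusted p of 6.73e-20 (edgeR). The bin chr8:46300001-46350000 had 16.2 and 18.1 CPM in the knockdown, against 26.01 and 27.8 CPM in the control, a log2 fold change of -0.65 ± 0.07 (adjusted p 4.08e-15, edgeR). In each of these bins both knockdown libraries lay below both control libraries. On the short-arm side, the bin next to the gap, chr8:43550001-43600000, had 10.4 and 9.67 CPM in the knockdown, against 15.7 and 16.2 CPM in the control (log2 fold change -0.67 ± 0.08, adjusted p 2.00e-11, edgeR). No protein-coding gene overlaps any of these bins.

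The 4 bins of chr12:34250001-34450000, also free of protein-coding genes, formed the run with the largest decreases. The bin chr12:34350001-34400000 was among the strongest of the flanks, with 56.5 and 61.5 CPM in the knockdown, against 101.5 and 119.4 CPM in the control. It changed by a log2 fold change of -0.91 ± 0.06 (adjusted p 3.98e-30, edgeR), and -0.59 with the trend removed. The neighbouring bin chr12:34300001-34350000 had 64.1 and 67.2 CPM in the knockdown, against 107.6 and 119.1 CPM in the control (log2 fold change -0.79 ± 0.06, adjusted p 9.34e-26, edgeR). Most other bins of that flank lay below 10 CPM in every library. The much dimmer bin chr12:34400001-34450000 had 4.69 and 4.50 CPM in the knockdown, against 8.38 and 9.13 CPM in the control, and its log2 fold change of -0.93 ± 0.12 was the largest decrease of all 1101 bins that passed the test (adjusted p 1.49e-11, edgeR). At the edge of the gap, chr12:34600001-34650000 had 4.58 and 4.10 CPM in the knockdown, against 6.87 and 7.72 CPM in the control (log2 fold change -0.75 ± 0.12, adjusted p 3.27e-07, edgeR).

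**Figure D3:**
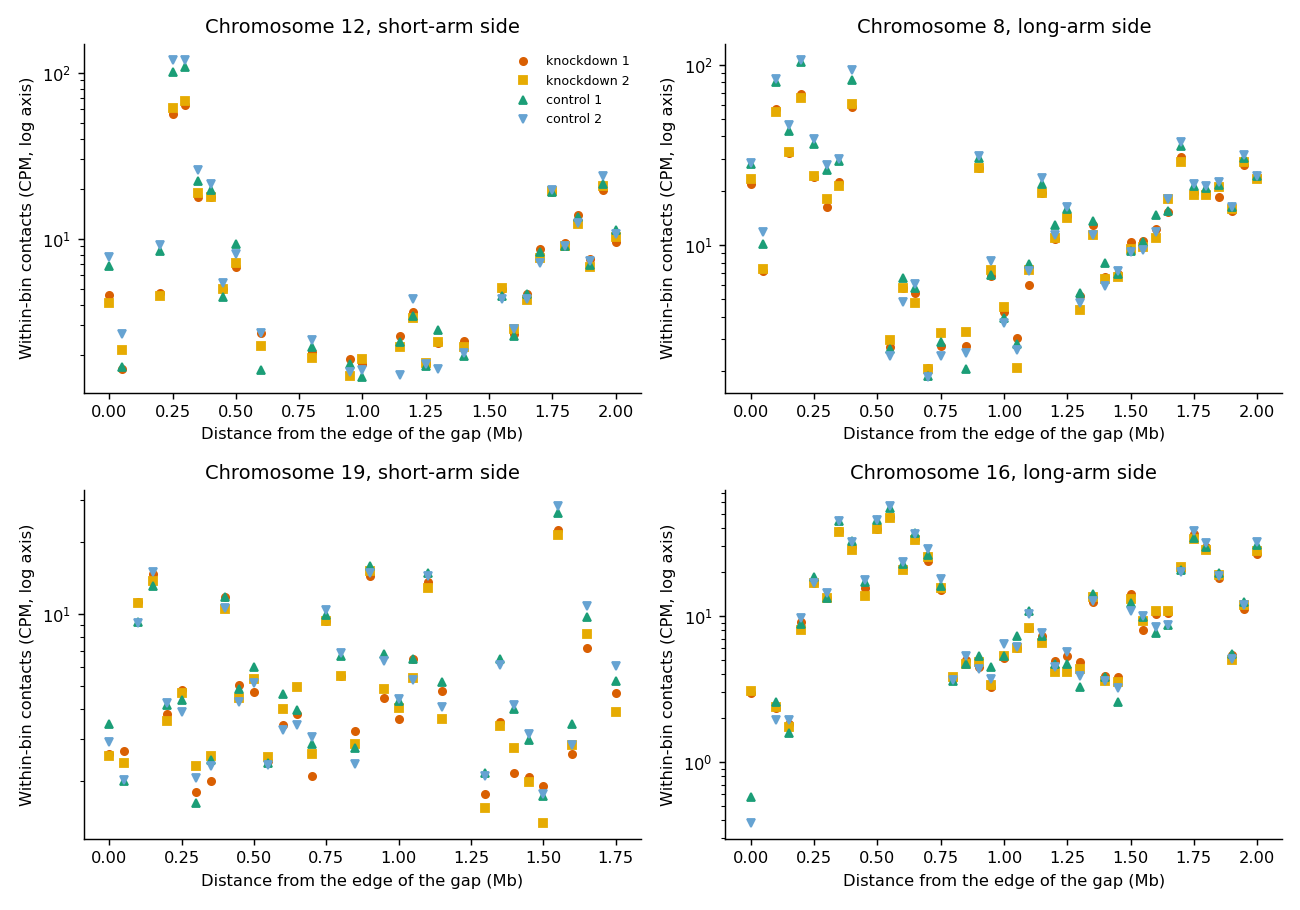
Within-bin contacts (CPM, log axis) of each library against distance from the edge of the gap, for 4 of the flanks. The knockdown libraries (orange circles, yellow squares) lie below the control libraries (green and blue triangles) in the 9 bins nearest the gap on the long-arm side of chromosome 8 and in the bright bins near 0.25 Mb on chromosome 12. On chromosome 16 the bin at the edge stands above the control in both knockdown libraries, and on chromosome 19 the run of lower bins lies beyond 1.3 Mb.

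Chromosome 16 held the one bin past a log2 fold change of 1, and it was an increase. The bin chr16:46350001-46400000, the first on the long-arm side and free of protein-coding genes, had 2.98 and 3.08 CPM in the knockdown, against 0.575 and 0.383 CPM in the control. Its counts were 360 and 458 in the knockdown, against 88 and 59 in the control. No pair in the table had fewer than 868 counts over the 4 libraries. A bin at this control level in all 4 libraries would not be listed. This bin was thus listed through its knockdown counts, and the size of its change carries that selection. The log2 fold change was 2.66 ± 0.24 (adjusted p 4.63e-18, edgeR) and 2.57 with the trend removed. This bin also took part in the one pair across a gap that passed the test. Its contacts with chr16:34550001-34600000, on the other side of the gap, had 3.35 and 4.10 CPM in the knockdown, against 0.824 and 0.643 CPM in the control (log2 fold change 2.35 ± 0.22, adjusted p 8.16e-18, edgeR). The control counts of this pair, 126 and 99, were likewise too low for a listing without the knockdown. The partner bin has no listed within-bin row and so is not one of the 1101. On the short-arm side of the same gap, the 3 adjoining bins of chr16:35050001-35200000 were lower in both scalings, with log2 fold changes between -0.47 and -0.31.

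Seen over all chromosomes, the 36 bins directly at the edges of the centromere gaps had a median log2 fold change of -0.24. That of all within-bin rows was 0.02. Of the 36 bins, 26 were below 0, whereas most of all within-bin rows were not, as their median shows. These 26 include both edges of chromosomes 8 and 12. They also include the single lower-coordinate bin of chromosome 1, at -0.25, whose place beside the centromere was not checked. Under TMM 8 were lower and 1 was higher, beside 14.7% lower and 7.29% higher among all within-bin rows. With the trend removed 11 were lower and 1 higher, beside 5.24% and 8.00%. Besides both edges of chromosomes 8 and 12, the lower ones were both edges of chromosome 2 and 1 edge each of chromosomes 9 and 18. The bin chr9:61650001-61700000 had 11.3 and 11.5 CPM in the knockdown, against 15.99 and 15.4 CPM in the control (log2 fold change -0.46 ± 0.08, adjusted p 2.52e-06, edgeR). The bin chr2:94200001-94250000 had 5.88 and 6.20 CPM in the knockdown, against 8.17 and 7.86 CPM in the control (log2 fold change -0.41 ± 0.11, adjusted p 0.00419, edgeR). The higher one is the bin of chromosome 16 described above.

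Farther from the gap, 5 of the 10 lower bins of chromosome 19 overlapped a zinc finger gene. Many bins of its short-arm flank that were not called overlapped one as well, so this count does not set the lower bins apart. The short arm of this chromosome carries, near the centromere, a cluster of KRAB zinc finger genes, many of which repress transposable elements. The bin of ZNF723, chr19:22800001-22850000, lay 1.35 Mb from the gap and had 3.54 and 3.38 CPM in the knockdown, against 6.48 and 6.12 CPM in the control. It had a log2 fold change of -0.87 ± 0.13 (adjusted p 6.51e-08, edgeR). The next bin, with ZNF99, had 2.16 and 2.74 CPM in the knockdown, against 4.01 and 4.17 CPM in the control (log2 fold change -0.74 ± 0.17, adjusted p 0.000373, edgeR). Leaving out knockdown library 1 ended that call (adjusted p 0.102). The adjoining bin on the other side of ZNF99, with no protein-coding gene, completed this run of 3 lower bins.

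The bins at centromere gaps overlap 29 zinc finger genes. Of these, 7 overlapped a lower bin (24.1%), 2 a higher bin and 20 no called bin, beside 36.6% of the 544 zinc finger genes of the table that overlapped a lower bin. The counts were 6, 2 and 21 with the trend removed, and the shares with a lower bin then stood the other way round, at 20.7% beside the gaps and 16.5% in the family as a whole. The lower ones were ZNF723, ZNF99, ZNF724, ZNF98, ZNF492, ZNF487 and ZNF892, with ZNF724 at a log2 fold change of -0.50 and ZNF98 at -0.40. With the trend removed, ZNF487 and ZNF892 no longer passed (adjusted p 0.450 and 0.167, edgeR), and ZNF91 did (adjusted p 0.0436, edgeR). The higher ones were ZNF25 on chromosome 10, at 0.38, and ZNF254, at 0.29. Fold changes are those of the called bin, and most of these genes also overlapped a bin that was not called. The ZNF254 bin had 11.2 and 11.1 CPM in the knockdown, against 9.21 and 9.10 CPM in the control (adjusted p 0.0197, edgeR), so these related promoters lie in bins of opposite direction. None of the 15 zinc finger genes at the other gaps overlapped a called bin. Zinc finger genes are related copies, and the sources used here do not say how reads that match several places were handled.

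Of the 7 genes of pericentromeric duplication families, 5 overlapped a lower bin and none a higher one. Of all genes in the table, 46.5% overlapped a lower bin, and 15.5% with the trend removed, where 4 of the 7 did. The lower bin of POTEA, of a primate-specific ankyrin family, had 10.1 and 10.98 CPM in the knockdown, against 14.9 and 15.3 CPM in the control (log2 fold change -0.52 ± 0.08, adjusted p 1.63e-07, edgeR). The other listed bin of POTEA was not called (log2 fold change -0.07, adjusted p 0.831, edgeR). The others were NBPF20 at -0.49, TEKT4, a tektin of sperm flagella, at -0.42, ANKRD30A at -0.41 and BMS1, a ribosome assembly GTPase, at -0.26. ANKRD30A and BMS1 each overlapped another bin that was not called. The lower bin of BMS1 did not pass with the trend removed. ANKRD36C and ANKRD30B overlapped no called bin. Their reads too may be shared with other copies.

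Among all 300 protein-coding genes in the bins at centromere gaps, 121 overlapped only lower bins among those called, 15 only higher bins and 2 both. The share with a lower bin was 41.0%, against 46.5% of the 17947 genes in the table, and 14.3% against 15.5% with the trend removed. The bins beside the centromeres were poor in genes, with 52.5% free of protein-coding genes, against 36.7% of all within-bin rows, and 67.5% within 0.5 Mb of the gap. Within 0.5 Mb of the gap 33 of 141 gene-free bins (23.4%) were lower, against 5.48% of all gene-free bins, and with the trend removed 24.1% against 3.05%. Chromosomes 8 and 12 held 19 of these 33 bins.

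Lower bins were also counted at matched levels of contacts. All within-bin rows were cut into 5 equal classes by their mean level. The 2 lowest classes hold 64 and 53 of the 209 bins within 0.5 Mb of the gap, and 0 and 2 of these were lower (0.0% and 3.77%), against 0.481% and 1.29% of all bins of those classes. In the fourth class, 44.1% of the 34 bins within 0.5 Mb of the gap and 19.2% of the 177 bins at centromere gaps were lower, against 8.42% of all bins of that class. In the third class the shares were 24.4%, 11.4% and 3.10%. In the top class they were 82.4%, 64.3% and 60.2%, where the TMM fold changes were negative for most bins of the genome (median -0.20). Without chromosomes 8 and 12 the shares within 0.5 Mb of the gap were 14.3% of 35 bins in the third class, 28.0% of 25 in the fourth and 62.5% of 8 in the top class, which is close to the 60.2% of all bins there.

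**Figure D4:**
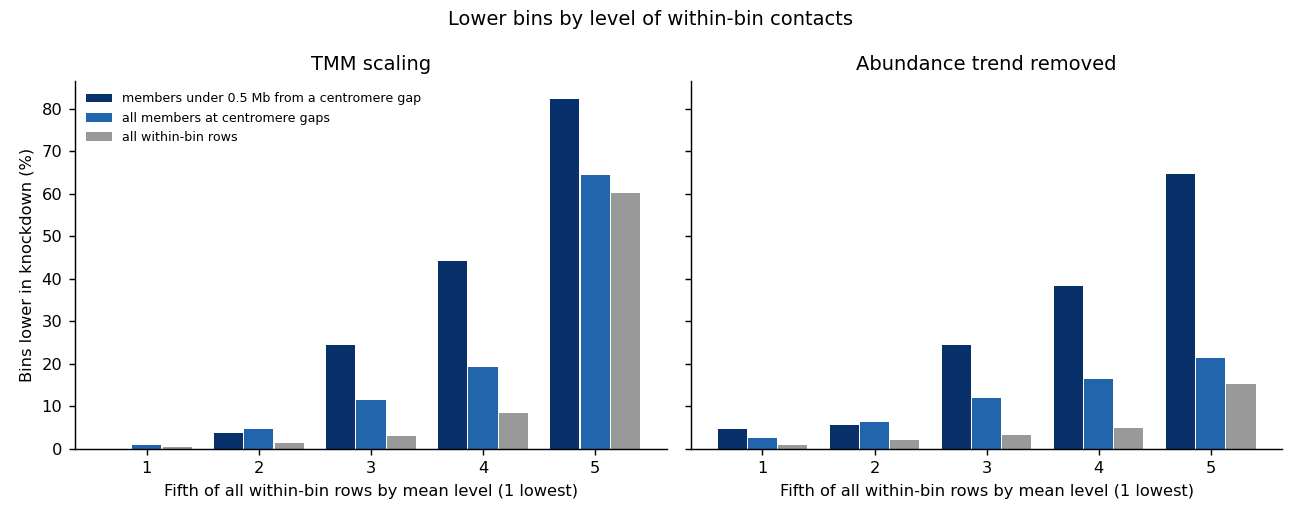
Percentage of bins lower in the knockdown in each of 5 equal classes of all within-bin rows by mean level, the lowest first, under TMM scaling (left) and with the abundance trend removed (right). Dark bars are bins under 0.5 Mb from a centromere gap, mid-blue bars all bins at centromere gaps and grey bars all within-bin rows. In the 3 highest classes the dark bar is the tallest in both panels, at 24.4%, 44.1% and 82.4% under TMM.

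Other runs of at least 3 adjoining bins called the same way in both scalings were few. Lower runs lay at chr20:24750001-24950000, which reaches CST7, the gene of the protease inhibitor cystatin F, and at chr22:17700001-17850000 over BCL2L13, BID and MICAL3. BID is a pro-apoptotic protein of the BCL2 family. The bin chr22:17750001-17800000 had 73.8 and 74.2 CPM in the knockdown, against 97.9 and 106.5 CPM in the control, a log2 fold change of -0.47 ± 0.06 (adjusted p 1.85e-12, edgeR) and -0.14 with the trend removed. One higher run at a centromere gap, chr17:27900001-28050000, reaches NLK, the gene of a serine/threonine kinase of the Wnt pathway. Its 3 bins had log2 fold changes between 0.27 and 0.33. Higher runs at the other gaps lay over RYR3, a calcium release channel, on chromosome 15 and over ANKS1A on chromosome 6.

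The largest increases other than that of chromosome 16 were in bins of chromosomes 3, 4, 5, 11 and 13, most of them dim. As the table lists abundant pairs only, the dimmest bins can be listed through their higher group alone. The bin of TRIM64C, of the tripartite motif family, had 2.33 and 2.22 CPM in the knockdown, against 1.14 and 1.38 CPM in the control (log2 fold change 0.85 ± 0.22, adjusted p 0.00261, edgeR). The bin of USP46, a deubiquitinase, had 9.17 and 8.15 CPM in the knockdown, against 5.65 and 5.62 CPM in the control (log2 fold change 0.62 ± 0.11, adjusted p 2.96e-06, edgeR). The bin of CWH43, which acts on lipid anchors of membrane proteins, had a log2 fold change of 0.66 ± 0.20 (adjusted p 0.0112, edgeR). The bin of the olfactory receptor genes OR4C15 and OR4C16 had 2.41 and 1.58 CPM in the knockdown, against 1.37 and 1.15 CPM in the control, and its call was lost with the trend removed (adjusted p 0.0946, edgeR). The other 5 held no protein-coding gene and had log2 fold changes between 0.60 and 0.75. Only the bins of USP46 and of the chromosome 16 edge, among these 10 increases, passed under all 9 alternative fits. Of the 10 largest decreases, 8 passed under all 9. The exceptions were the ZNF99 bin and the dim bin chr21:10100001-10150000, with 0.959 and 1.39 CPM in the knockdown, against 2.35 and 1.85 CPM in the control, whose call was lost without control library 1 (adjusted p 0.0556) or without knockdown library 1 (adjusted p 0.281).

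The remaining one of the 10 largest decreases lay on the short arm of chromosome 7, 1.05 Mb from the gap. The bin chr7:56800001-56850000 had 6.31 and 6.36 CPM in the knockdown, against 9.002 and 12.3 CPM in the control (log2 fold change -0.75 ± 0.10, adjusted p 1.51e-09, edgeR). The control libraries differed from each other by about as much as the knockdown differed from the lower of them, and no overlap was seen.

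**Figure D5:**
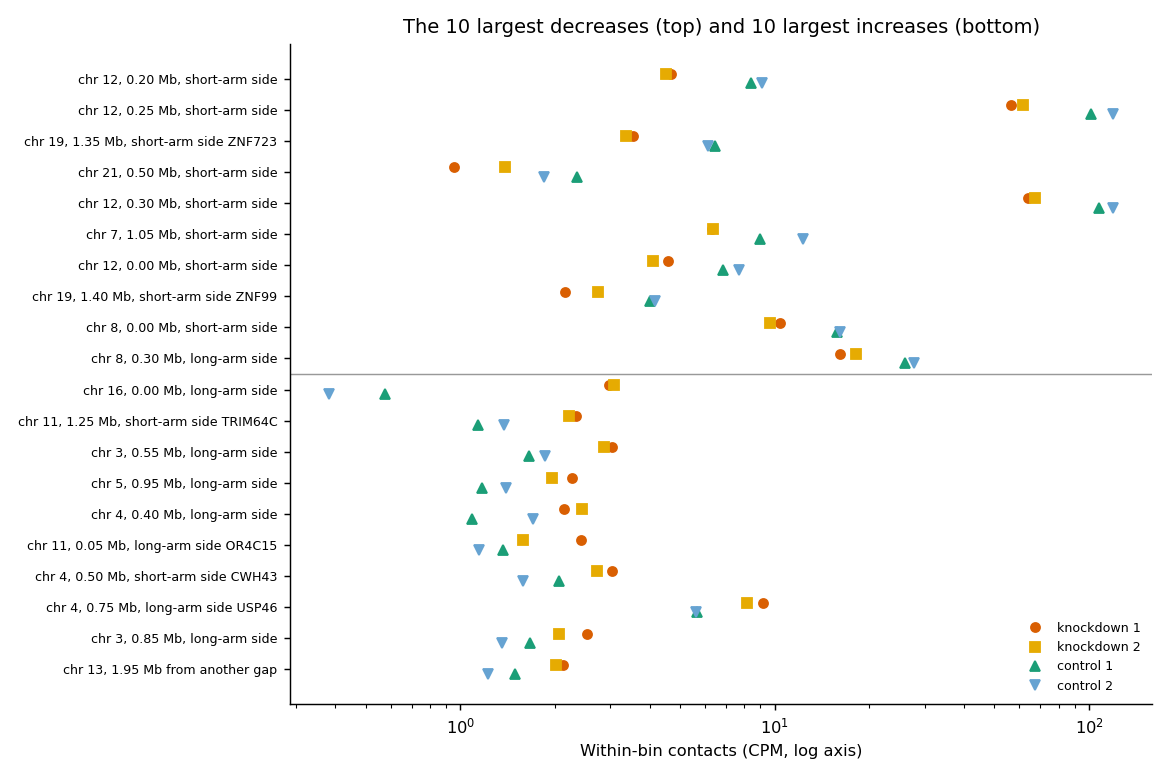
Within-bin contacts (CPM, log axis) in each library for the 10 bins with the largest decreases (above the line) and the 10 with the largest increases (below it) that passed the test with groups that do not overlap. Each row gives the chromosome, the distance from the gap, the side and a gene where one is named, with the knockdown markers drawn above the control markers. The decreases span about 1 to 119 CPM, and the increases lie under 10 CPM.

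Contacts between different bins of the flanks were also counted. The table listed 666 pairs of different bins among the 1101, of which 32 were lower and 20 higher in the knockdown. All pairs of different bins of one chromosome had a background of 5.83% lower and 3.76% higher. At centromere gaps, 28 of 531 pairs were lower (5.27%) and 15 higher (2.82%), which is near that background. With the trend removed 33 were lower (6.22%) and 4 higher (0.753%), against 6.99% and 1.44%. No listed pair joined 2 of these bins across a gap, and the farthest pair was 1250 kb apart. The largest decrease was between the adjoining bright and dim bins of chromosome 12, chr12:34350001-34400000 and chr12:34400001-34450000, with 2.06 and 2.03 CPM in the knockdown, against 4.45 and 4.69 CPM in the control (log2 fold change -1.16 ± 0.17, adjusted p 5.47e-09, edgeR). On chromosome 8, the bins chr8:46200001-46250000 and chr8:46400001-46450000 had 2.64 and 3.48 CPM of contacts with each other in the knockdown, against 5.26 and 4.97 CPM in the control (log2 fold change -0.74 ± 0.15, adjusted p 4.42e-05, edgeR). The bins over ZNF254, at 0.1 and 0.15 Mb from the gap of chromosome 19, had more contacts with each other, at 2.40 and 2.52 CPM in the knockdown, against 1.31 and 1.54 CPM in the control (log2 fold change 0.79 ± 0.22, adjusted p 0.00435, edgeR). These pairs share their bins with the within-bin counts, so they are not independent of them.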

How the data were processed

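Micro-C contacts of 2 TDP-43 knockdown and 2 control libraries were read from the deposited table of 89239 bin pairs. The values deposited by the authors are counts, that is raw contacts per library, per the file headers. The same headers give the authors' log2 fold change and log2 abundance, an F statistic (a score) and p-values. HiC-Pro and hg38 are named, without versions, in the submitters' processing notes. What the titles' "merged" refers to is not stated. The table lists abundant pairs only, so its totals are not library depths.

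Counts of all pairs were fitted with edgeR 4.0.16 (glmQLFit, glmQLFTest, TMM, filterByExpr, which removed 0 pairs; limma 3.58.1, R 4.3.3) and adjusted by Benjamini-Hochberg at 0.05. The flanks were read from that fit. Levels are TMM-scaled CPM, and SE is the log2 fold change over the square root of F. DESeq2 1.42.0 and a loess removal of the abundance trend were alternatives. On counts simulated for this comparison (89239 pairs), edgeR found 97% of 100 pairs changed by 1 (log2) and 29% of 100 changed by 0.5, with 5 false calls. The spread between libraries corresponded to a coefficient of variation of 9.01%. Same-numbered libraries did not deviate together (r = 0.0234 across pairs), so numbers were not used as pairs.

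Bins and gene lists were chosen with earlier results of these data known. Named bins are the 10 largest increases and decreases past the threshold with groups that do not overlap, the edge bins and called pairs across a gap, and, from each gene list, at most 4 genes with the largest changes. Examples from runs and from pairs of different bins, the chromosome totals, and the genes given beyond the 4 per list were picked with their values in view. Gene bodies and promoters came from RefSeq GRCh38.p14. Bin sequences and centromere annotation were not used here. Tables and plots were made in Python 3.11.15 with pandas 2.3.3, numpy 2.4.6, matplotlib 3.10.9 and scipy 1.17.1.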

Additional observations from a re-analysis of the deposited data

Results flagged for a closer look

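Outside chromosomes 1 to 22, the table lists 63 within-bin rows on 45 unplaced, random or alternate contigs. They were part of the fit of all pairs but of none of the sets of bins compared above. Of these rows 16 were lower and 2 higher in the knockdown (edgeR, adjusted p under 0.05). Among all within-bin rows of chromosomes 1 to 22, 14.7% were lower and 7.29% higher. These 2 are listed here because a signal above the control appears in data that the comparisons did not use. One unplaced contig had a mean of 3.61 CPM in the knockdown, against 1.09 CPM in the control, a log2 fold change of 1.73 (adjusted p 2.19e-12). Its control counts were only 191 and 142, so this row too was listed through its knockdown counts. The first bin of a random contig of chromosome 17 had 11.1 CPM in the knockdown, against 8.65 CPM in the control, a log2 fold change of 0.35 (adjusted p 0.00398). The other listed bin of that contig had a log2 fold change of -0.17 (adjusted p 0.0551, edgeR).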

How the results depend on the processing

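No alternative reversed the direction of a named bin or of the share of all 1101 bins. Removing the trend turned the balance of lower and higher bins on chromosomes 3, 6 and 17 and at the 4 other gaps. On chromosome 3 this was from 2 higher and 1 lower to 1 higher and 2 lower. Leaving out chromosomes 8 and 12 turned the share held within 0.5 Mb of the gap. Of the 1101 bins, 59 were higher and 189 lower in the knockdown. The higher count was 30 with DESeq2, 24 at an adjusted p of 0.01, 30 (of 548 bins) with flanks of 1 Mb, 39 on the centromere chromosomes, and 10 to 63 with a library left out. The lower count was 105 both after removing the trend and in the authors' deposited table, 101 with flanks of 1 Mb, and 91 to 226 with a library left out. The 52 called pairs of different bins became 30 with DESeq2 and 13 to 64 with a library left out. Lower bins within 0.5 Mb of a centromere gap, 41 in all, numbered 19 without chromosomes 8 and 12, 22 to 47 with a library left out, and with the trend removed as well 18 and 23 without knockdown library 1 and 2 (range 18 to 42). The share of the flanks, knockdown minus control, was -0.00973 percentage points, -0.0333 of all listed contacts, -0.0279 with flanks of 1 Mb, -0.0168 on the centromere chromosomes, and -0.0126 to -0.00681 with a library left out. The replicate block gave 67 higher and 206 lower bins, 55 pairs and 43 bins within 0.5 Mb, and kept all 189 lower bins, though the numbers do not pair the libraries. Calls lost among the 20 named bins were 5 with the trend removed, 4 with DESeq2, 10 without knockdown library 1 and 5 without knockdown library 2. Where a library was left out, the lone library of its group was assumed to vary like the other group. The alternatives limited to the 18 chromosomes, the authors' table, and those for bins within 0.5 Mb, by level too, were chosen after seeing the data. Limiting the flanks by an annotated centromere was not run. The causes of these shifts were not tested. With 2 libraries a group, 29% of simulated pairs changed by a log2 size of 0.5 were found, so changes of that size can be missed. The simulation gave every pair the same spread. Smaller changes were also called in the data, as the called bins at centromere gaps had a median absolute log2 fold change of 0.335.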
